A study of Mus musculus with 2 samples.

Results

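The genes described here encode the mouse DNA repair machinery, 53 listed genes chosen by name and split by the kind of damage that they act on: recombination (16 genes), the Fanconi anaemia route (8), mismatch repair (3), base excision (9), nucleotide excision (6), end joining (5) and the checkpoint kinases (4), with Rad18 and Stag3 apart. A probe that carried the gene's current or former symbol was found for 52 of the 53, Atr having none by that rule, and all 52 were well above background at both ages, among 19752 named genes on the array. They had 94 probes. Rad54b was matched through a former symbol.

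The study compared the airway epithelium of the fetal mouse lung at E18.5 with the same epithelium at E14.5, in a search for genes that act downstream of the transcription factor FOXJ1 when cilia form. Both samples came from wild-type male CD-1 fetuses, an outbred stock. From cryosections, the epithelium of the intralobular airways was cut out by laser, and the pieces of 1 whole lung per age were pooled. The RNA was amplified once. The E18.5 sample was labelled with Cy5 (red) and the E14.5 sample with Cy3 (green), and both were hybridised to 1 two-colour array. With 1 lung per age and no exchange of dyes there is no replicate spread and no test, and dye and age cannot be told apart. Differences are therefore called by size, at 2-fold or more, and read against the share of all genes past the same fold. The spreads available are technical: ratios of repeated spots of a probe had a median SD of 0.05 on the log2 scale, and different probes of a gene had a median SD of 0.33.

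DNA repair works through separate routes. Recombination copies a broken or stalled stretch from the sister chromatid and is used mainly while a cell replicates its DNA or is about to divide; the Fanconi proteins unhook links between the strands and hand the lesion on to it. Mismatch repair corrects copying errors behind the replication fork. Base excision removes single damaged bases, nucleotide excision cuts out bulky lesions, and end joining seals double-strand breaks without a template, and these routes also work in cells that no longer divide. Many genes of replication and recombination are transcribed before and during DNA synthesis under E2F factors, which is why promoter sequence is shown first.

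A promoter window from RefSeq (build GRCm38.p6), covering 250 bases before to 50 bases after an annotated start, was given for 43 of the 53 members, in 47 windows. The windows were searched on both strands for the E2F letters TTTCCCGC, TTTGGCGC, TTTGCCGC and TTTCGCGC, for the letters TTTGAA of the cell cycle homology region (CHR) and for CCAAT. Matches of different motifs may overlap. The E2F letters stood in 9 of the 47 member windows (19.1%), against 744 of all 32851 windows (2.26%). Among windows of genes measured at both ages, the closer comparison, they stood in 552 of 16249 (3.4%). The members with the smallest ratios of E18.5 to E14.5 among those that hold the letters were Brca2, Rad51c, Msh3 and Msh6. The promoters of Brca2, Rad51c and Msh6 are shown because they hold the letters, here over 280 bases that end 30 bases after the start, 5′ to 3′ on the gene's strand. Capitals mark the E2F letters or their reverse complement.
Brca2, chr5:150522371-150522650, plus strand: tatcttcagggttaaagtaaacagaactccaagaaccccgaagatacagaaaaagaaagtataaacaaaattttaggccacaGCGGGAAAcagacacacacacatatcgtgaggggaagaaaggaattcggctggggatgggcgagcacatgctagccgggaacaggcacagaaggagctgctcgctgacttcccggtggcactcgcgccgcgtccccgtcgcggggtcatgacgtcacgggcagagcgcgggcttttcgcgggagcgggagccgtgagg
Rad51c, chr11:87404477-87404756, minus strand: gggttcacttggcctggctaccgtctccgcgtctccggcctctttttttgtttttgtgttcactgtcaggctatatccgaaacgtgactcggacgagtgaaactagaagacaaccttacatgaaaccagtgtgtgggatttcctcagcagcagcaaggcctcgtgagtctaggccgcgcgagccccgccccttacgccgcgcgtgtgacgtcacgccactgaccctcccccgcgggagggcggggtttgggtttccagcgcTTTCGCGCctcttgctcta
Msh6, chr17:87974800-87975079, plus strand: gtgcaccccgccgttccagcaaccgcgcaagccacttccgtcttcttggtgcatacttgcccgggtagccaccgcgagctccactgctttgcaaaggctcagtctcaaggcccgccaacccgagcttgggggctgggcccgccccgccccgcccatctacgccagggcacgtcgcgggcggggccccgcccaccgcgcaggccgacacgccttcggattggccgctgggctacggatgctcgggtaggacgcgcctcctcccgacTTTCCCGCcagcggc

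The match begins at an offset of -168 bases from the annotated start in Brca2, 11 in the Rad51c window shown and 15 in Msh6. Rad51c has 2 windows, both among the 9 with the letters. The centre of the match lies at 15 from the start in the window shown and at -1 in the other. Msh3 holds 2 overlapping matches. The other members with the letters were Chek2, Fancg, Xrcc6 and Bard1.

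Most repair genes were lower in the E18.5 epithelium. Of the 52 measured, 28 (53.8%) were at least 2-fold lower, against 10.1% of the 17247 genes with a value, and 2 (3.85%) were at least 2-fold higher, against 17.3% of all genes. A further 22 lay within 2-fold. At 4-fold or more, 14 members (26.9%) were lower, against 2.18% of all genes, and none was higher. In all, 47 of the 52 had a log2 ratio of E18.5 over E14.5 below 0, with a median of -1.04 beside 0.06 for all genes. In such bulk material, fewer cells of a type and less RNA per cell cannot be told apart.

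The routes did not share this evenly. Recombination and Fanconi genes together had 18 of 24 members at least 2-fold lower (median log2 ratio -1.43), whereas nucleotide excision had 0 of 6 (median -0.24) and end joining 0 of 5 (median -0.78). With the scanner software's ratio or the authors' value table, 2 of the 5 end joining genes, Xrcc6 (-1.23) and Prkdc (-1.11), passed 2-fold lower, and still 0 of the 6 nucleotide excision genes. Mismatch and base excision genes lay between. The difference between routes was not tested, since each ratio comes from the same array.

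**Figure D1:**
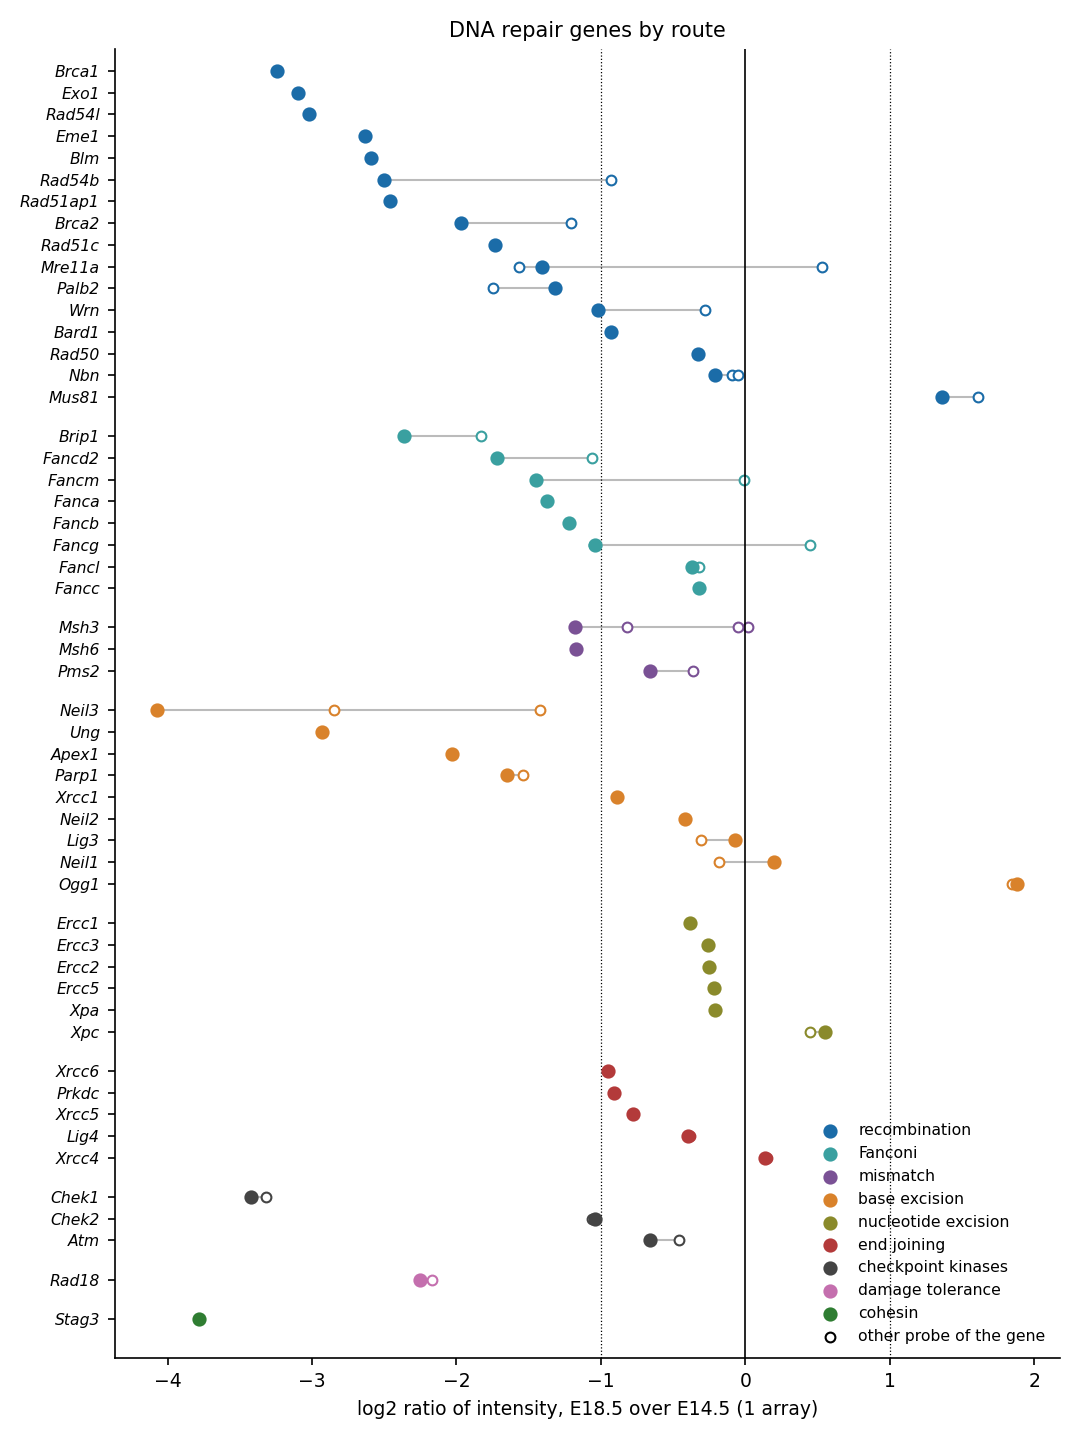
Log2 ratio of normalised intensity, E18.5 over E14.5 (horizontal axis), for each of the 52 members, grouped and coloured by route. Filled points are the brightest probe of a gene, open points its other probes well above background at both ages, and dotted lines mark 2-fold. Recombination genes reach -3.24, while all nucleotide excision and end joining genes lie inside the dotted lines.

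In the mediators of recombination, Brca1 had the smallest ratio. It encodes a ubiquitin ligase that directs breaks towards recombination, and its transcript had a normalised intensity of 1067 at E18.5, against 10086 at E14.5 (log2 ratio -3.24, 9.45-fold lower). A dimmer Brca1 probe was well above background at E14.5 only and was at least 2.31-fold lower at E18.5. Bard1, the obligate partner of Brca1, was dim at both ages, with 87 at E18.5 and 165 at E14.5, and its log2 ratio of -0.93 lay inside 2-fold. The scanner software's ratio for Bard1, which adds no offset to dim signals, was -2.47. Leaving out the offset alone gave -1.62. The size for Bard1 thus depended on the processing, and the cause of the remaining difference was not tested.

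Brca2, a mediator of strand invasion that binds single-stranded DNA, had 938 at E18.5 and 3662 at E14.5 (3.90-fold lower). A second, dimmer probe gave a log2 ratio of -1.21 beside -1.97. Palb2, which links BRCA1 to BRCA2, had 158 at E18.5 and 394 at E14.5, and its 2 probes gave -1.32 and -1.75. Both probes of each gene lay past 2-fold. Rad51c, a subunit of complexes that assist strand invasion, had 195 at E18.5 and 645 at E14.5 (log2 ratio -1.73).

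Rad54l, Rad54b and Rad51ap1, which also act in strand exchange, were at least 4-fold lower at E18.5 at their brightest probes. Rad54l, a DNA translocase of strand exchange, had 424 at E18.5 and 3439 at E14.5 (8.11-fold lower). Its relative Rad54b had 1142 at E18.5 and 6474 at E14.5 (5.67-fold lower), though its dimmer probe gave a log2 ratio of -0.93 beside -2.50. Rad51ap1, which stimulates strand exchange, had 511 at E18.5 and 2820 at E14.5 (5.52-fold lower). These 3 genes lie within the 14 members past 4-fold.

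End resection, the trimming that starts recombination, was split between its enzymes. Exo1, a nuclease of long-range resection that also serves mismatch repair, had 1512 at E18.5 and 12991 at E14.5 (8.59-fold lower). Of the MRN complex, which senses breaks, Mre11a, the nuclease, had 2504 at E18.5 and 6660 at E14.5 (log2 ratio -1.41), while Rad50 and Nbn had log2 ratios of -0.33 and -0.21. The 3 probes of Mre11a did not lie on 1 side of 0: they gave -1.41, -1.57 and 0.53, the last from a probe with 348 at E18.5 and 240 at E14.5. All 3 probes of Nbn, of which the dimmest lies on the opposite strand, lay between -0.21 and -0.05.

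The helicases and nucleases that resolve joined DNA also differed among themselves. Blm, a helicase that dissolves double Holliday junctions, had 1536 at E18.5 and 9225 at E14.5 (6.01-fold lower). Wrn, the helicase lost in human Werner syndrome, had 256 at E18.5 and 520 at E14.5 (2.03-fold lower), and a probe that overlaps it almost wholly gave a log2 ratio of -0.28 beside -1.02. Its call therefore differs between overlapping probes, and with median centring in place of loess its log2 ratio was -0.94.

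Eme1 and Mus81 encode the subunits of 1 structure-specific nuclease and lay on opposite sides of 0. Eme1, the non-catalytic subunit, had 483 at E18.5 and 2984 at E14.5 (log2 ratio -2.63, 6.18-fold lower). Mus81, the catalytic subunit, had 8551 at E18.5 and 3327 at E14.5 (log2 ratio 1.36, 2.57-fold higher), and its other probe, which overlaps the first in sequence, gave 1.61. Mus81 was the single recombination member at least 2-fold higher.

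Among Fanconi genes, 6 of 8 were at least 2-fold lower, with a median log2 ratio of -1.30. Brip1, a helicase that binds BRCA1, had 551 at E18.5 and 2831 at E14.5 (5.14-fold lower), and its second probe gave a log2 ratio of -1.83 beside -2.36. Fancd2, which is monoubiquitinated at blocked forks, had 1040 at E18.5 and 3420 at E14.5 (3.29-fold lower), with a second probe at -1.06. Both genes were past 2-fold in every probe measured at both ages.

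The core complex that ubiquitinates FANCD2 was less even. Fancm, its DNA-binding translocase, had 734 at E18.5 and 2009 at E14.5 (log2 ratio -1.45), but a dimmer probe had 147 at E18.5 and 148 at E14.5 (-0.01). Fanca had 1558 at E18.5 and 4029 at E14.5 (-1.37), and Fancb had 1518 at E18.5 and 3536 at E14.5 (-1.22). For Fancg, with 1169 at E18.5 and 2406 at E14.5 (-1.04), a second probe gave -1.05 and the dimmest, with 232 at E18.5 and 170 at E14.5, gave 0.45. The ubiquitin ligase subunit Fancl and the subunit Fancc lay within 2-fold, at -0.37 and -0.32.

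Of the mismatch genes, Msh6 and Msh3, which recognise different mispairs, had nearly the same ratio. Msh6, for single mispairs, had 8716 at E18.5 and 19595 at E14.5 (2.25-fold lower), and Msh3, for larger loops, had 3994 at E18.5 and 9030 at E14.5 (2.26-fold lower). The 3 dimmer probes of Msh3, which lie upstream in the gene, gave log2 ratios between -0.82 and 0.02, so that its call rests on 1 probe. Pms2, the endonuclease subunit, lay within 2-fold at -0.66, with a second probe at -0.36.

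Base excision held both extremes of the repair genes. Neil3, a glycosylase that prefers single-stranded DNA and also opens interstrand links at forks, had 341 at E18.5 and 5734 at E14.5 (log2 ratio -4.07, 16.8-fold lower), the 8th smallest ratio among the 16321 genes measured at both ages. One dimmer probe had 140 at E18.5 and 1006 at E14.5 (-2.85). The dimmest had 95 at E18.5, against 253 at E14.5 (-1.42), so all 3 were past 2-fold while the size differed. The other NEIL glycosylases lay within 2-fold, Neil1 at 0.20 with a second probe at -0.18, and Neil2, dim at both ages with 105 at E18.5 and 141 at E14.5, at -0.42.

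Ung, which removes uracil from DNA and has a nuclear form that acts at replication forks, had 1297 at E18.5 and 9906 at E14.5 (7.64-fold lower). Ogg1, which removes oxidised guanine, had the highest ratio of all members, with 3226 at E18.5 and 877 at E14.5 (log2 ratio 1.88, 3.68-fold higher). A second Ogg1 probe that overlaps the first gave 1.85. Ogg1 overlaps Camk1 in the RefSeq annotation, and Camk1 had a log2 ratio of -0.04.

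The enzymes downstream of the glycosylases were also uneven. Apex1, the endonuclease that cuts the abasic site, had 10078 at E18.5 and 41174 at E14.5 (4.09-fold lower). Parp1, which marks strand breaks with poly(ADP-ribose), had 4207 at E18.5 and 13237 at E14.5 (3.15-fold lower), with a second, overlapping probe at -1.54 beside -1.65. The scaffold Xrcc1 lay just within 2-fold at -0.89, and its ligase partner Lig3 lay at -0.07.

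Nucleotide excision genes were nearly level. The damage sensor Xpc was higher within 2-fold, with log2 ratios of 0.55 and 0.45 from 2 probes. The damage verifier Xpa lay at -0.21, the TFIIH helicases Ercc2 and Ercc3 at -0.25 and -0.26, and the nucleases Ercc1 (with its partner XPF) and Ercc5 at -0.38 and -0.22. None lay farther from 0 than Xpc, beside the median SD of 0.33 between probes of a gene.

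End joining genes were also within 2-fold, though Xrcc6 and Prkdc passed it with the scanner's ratio and the value table. The Ku subunits Xrcc6 and Xrcc5, which bind broken ends, had log2 ratios of -0.95 and -0.78. Prkdc, the DNA-dependent protein kinase that Ku recruits, lay at -0.91, with an SD of 0.039 over 10 repeated spots. The ligase Lig4 (-0.40, second probe -0.38) and its cofactor Xrcc4 (0.14, second probe 0.15) were nearer to 0.

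The checkpoint kinases carry the damage signal to the cell cycle. Chek1, the kinase downstream of ATR at stalled forks, had 351 at E18.5 and 3760 at E14.5 (log2 ratio -3.42, 10.7-fold lower), and its second probe gave -3.32. Chek2, downstream of ATM at breaks, had 267 at E18.5 and 549 at E14.5 (2.06-fold lower, second probe -1.06), and with median centring its log2 ratio of -0.96 lay within 2-fold. Atm itself lay within 2-fold, at -0.66, with a second probe at -0.46 whose 9 repeated spots had an SD of 0.063.

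Outside these routes, Rad18 and Stag3 were lower. Rad18, the ubiquitin ligase that marks PCNA for bypass of damaged bases, had 236 at E18.5 and 1117 at E14.5 (4.74-fold lower, second probe -2.17 beside -2.25). Stag3, a cohesin subunit known mainly from meiosis, had 124 at E18.5 and 1705 at E14.5 (log2 ratio -3.78, 13.7-fold lower), from 1 probe. In the annotation Stag3 overlaps Gpc2, whose log2 ratio was -2.67, and Gal3st4, at -0.98. Whether transcripts of those genes add to the Stag3 probe was not tested.

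**Figure D2:**
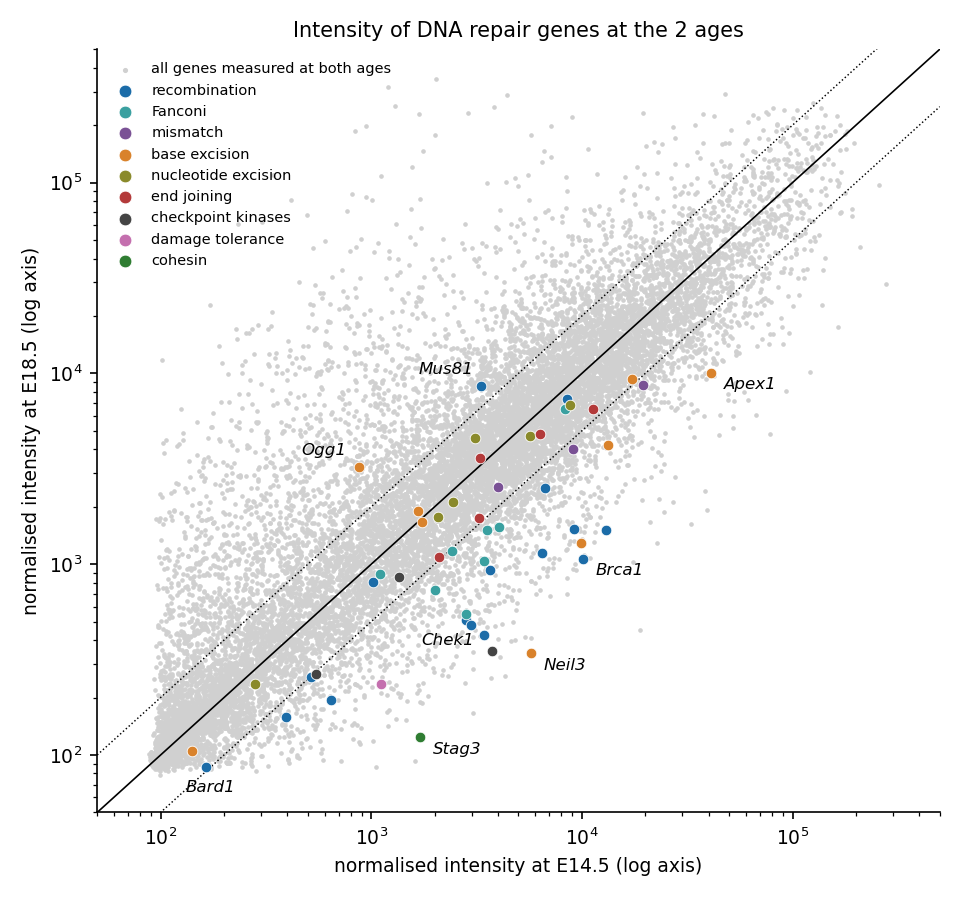
Normalised intensity at E18.5 (vertical, log axis) against E14.5 (horizontal, log axis) for the 52 members, coloured by route, over the 16321 genes measured at both ages (grey). The solid line marks equality and dotted lines mark 2-fold. Most members lie below the solid line at all intensities, and Ogg1 and Mus81 lie above the upper dotted line.

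Summed over the members, normalised intensity was 128684 at E18.5, against 282085 at E14.5, and the median member had 1404 at E18.5 and 3298 at E14.5. For all genes measured at both ages the medians were 2524 at E18.5 and 2137 at E14.5. No member was saturated or below background in either channel at its brightest probe. The dimmest members were Bard1 at E18.5 and Neil2 at E14.5, and the brightest at both ages was Apex1. For 6 members, all dim at E18.5, the scanner software's log2 ratio lay over 1.5-fold farther from 0: Bard1, Stag3 (-5.21), Palb2 (-2.09), Rad51c (-2.46), Rad18 (-2.97) and Neil2 (-1.09). With it Bard1, Neil2, Xrcc6, Prkdc and the bright Xrcc1 (-1.04) passed 2-fold lower.

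Probes of the same gene showed how far these sizes can be read. Of 26 members with 2 or more probes measured at both ages, 6 had probes at least 2-fold apart: Rad54b, Mre11a, Fancg, Fancm, Msh3 and Neil3. None of the 26 had 1 probe at least 2-fold lower and another at least 2-fold higher. In 17 members the probes that gave a value lay on 1 strand and over 1 kb apart in the gene. Fancm and Nbn, which also have a probe on the opposite strand, were left out of this count. The brightest was the most downstream in 14 of the 17, and in 12 of these 14 it lay farther from 0 than the most upstream probe. In Mre11a, Palb2 and Rad18 the brightest was itself the most upstream, so this comparison could not be made. In those 12 genes the probe position, the brightness and the ratio thus moved together, and their parts in the result were not told apart.

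**Figure D3:**
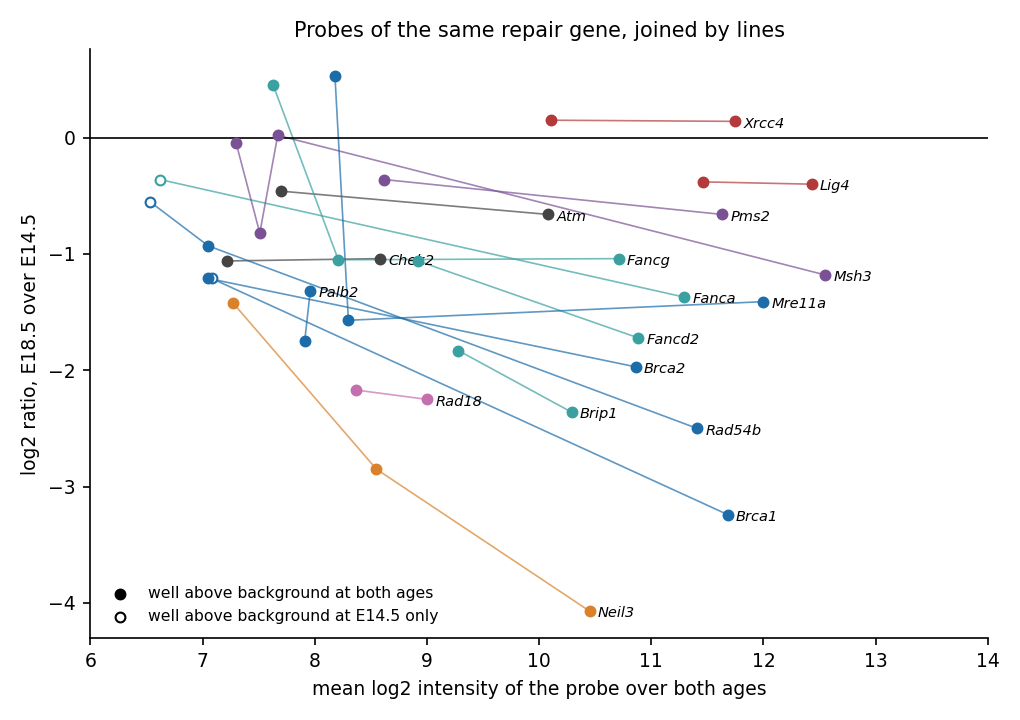
Log2 ratio of E18.5 over E14.5 (vertical) against mean log2 intensity over both ages (horizontal) for each measured probe of the 17 members whose probes lie on 1 strand and over 1 kb apart, with probes of a gene joined and coloured by route. Open points were well above background at E14.5 only and are bounds. In Neil3, Brca1, Rad54b and Msh3 the dimmer probes lie nearer to 0, while the probes of Xrcc4, Lig4, Chek2 and Rad18 lie level.

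Further genes of the same routes, 85 in a list chosen with earlier results of these data known, were set beside the members. A ratio was measured for 83, of which 19 were at least 2-fold lower, 2 at least 2-fold higher and 62 within 2-fold, with a median log2 ratio of -0.38. Of all genes with a value, 10.1% were at least 2-fold lower and 17.3% at least 2-fold higher, which the counts by route below should be read against. As among the members, recombination had the most lower genes, 9 of 15 (median -1.31). Nucleotide excision had 0 of 12 lower and 1 higher (median 0.02), end joining had 0 of 5 lower (median 0.59, with Polq listed under damage tolerance), and cohesin had 0 of 7. The Fanconi genes had 2 of 7 lower, the mismatch genes 2 of 4, base excision 2 of 12, damage signalling 2 of 10, and damage tolerance 2 lower and 1 higher of 11.

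Among the lowest of these genes, Gen1, a Holliday junction resolvase, lay at -2.59, with other probes between -2.10 and -0.49, and Polq, the polymerase of microhomology-mediated joining, lay at -2.58. Clspn, the adaptor through which ATR activates CHEK1, lay at -2.36, and Topbp1, an activator of ATR, lay at -2.05.

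Among the highest were Polk, a bypass polymerase, at 1.64 with a second probe at 0.02, Cetn2 at 1.49, Polm, an end joining polymerase, at 0.98, and Hltf, a fork remodelling translocase, at 0.86. Cetn2 encodes centrin, a subunit of the XPC complex that is also part of centrioles. It had 47263 at E18.5 and 16813 at E14.5 (2.81-fold higher), and its second probe gave 1.55. The list of 6 multiciliated cell markers had a summed intensity of 124956 at E18.5 and 14579 at E14.5, with 5 of 6 at least 2-fold higher, and its part in the Cetn2 value was not tested.

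**Figure D4:**
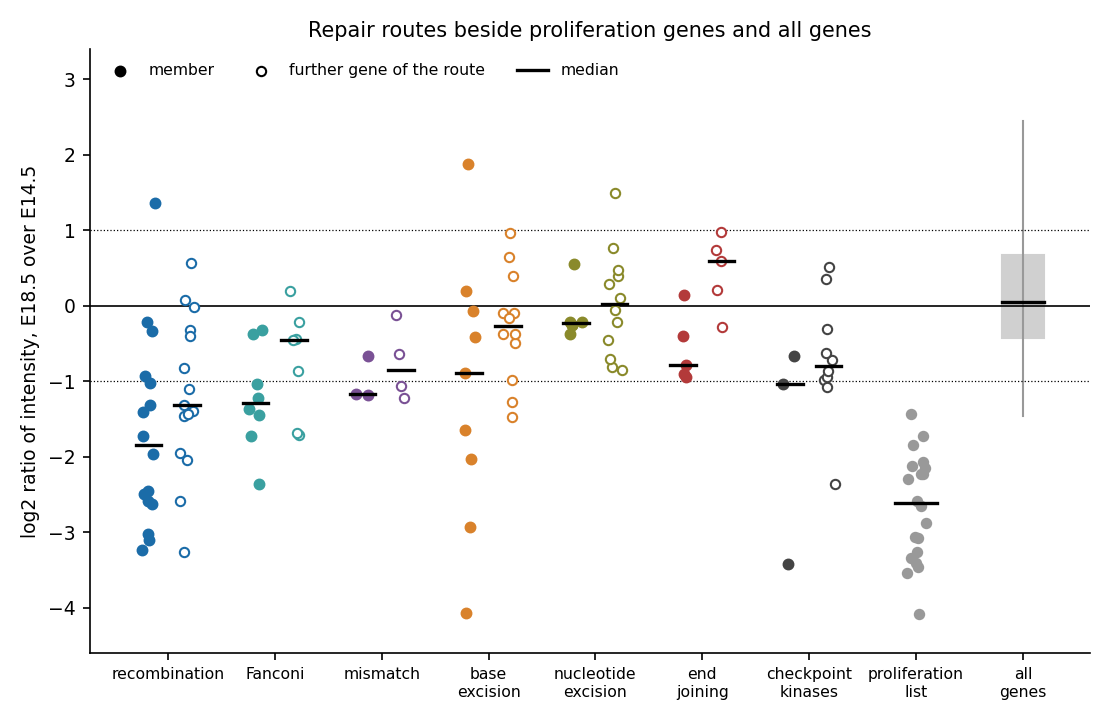
Log2 ratio of E18.5 over E14.5 (vertical) of the members (filled points) and the further genes (open points) of each route, beside the 20 genes of the proliferation list. Black bars are medians, the grey box and line for all genes span the middle 50% and 90%, and dotted lines mark 2-fold. All 20 proliferation genes lie below the lower dotted line, while the nucleotide excision genes cluster around 0.

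Markers of other cell states moved between the ages as well. Their counts stand beside 10.1% of all genes at least 2-fold lower and 17.3% at least 2-fold higher. All 20 genes of a proliferation list were at least 2-fold lower at E18.5, with a median log2 ratio of -2.62 and a summed intensity of 132839 at E18.5, against 796235 at E14.5. Among them Mki67 lay at -3.54, Mcm2 at -3.26, Top2a at -2.59 and Pcna at -2.15. Of 8 epithelial markers 3 were at least 2-fold higher and none lower (summed intensity 505693 at E18.5 and 303152 at E14.5). Leukocyte markers were higher in 7 of 10 (166957 at E18.5 and 6499 at E14.5), a sum in which Lyz2 alone had 146915 and 1769. Endothelial markers were higher in 3 of 8 (103313 at E18.5 and 15535 at E14.5), with Kdr alone at 71669 and 4090. Club cell markers were higher in 3 of 3 (915519 at E18.5 and 4538 at E14.5). Erythroid markers were lower in 4 of 8 (10195 at E18.5 and 41543 at E14.5). Markers of mesenchyme and smooth muscle were lower in 3 of 10 (464254 at E18.5 and 564856 at E14.5). Those 3 were the smooth muscle genes Acta2 (-1.52), Myh11 (-2.43) and Cnn1 (-1.45), and the other 7 lay within 2-fold. All 10 had signal at both ages in tissue labelled epithelium. Of all these markers, the leukocyte integrin Itgam at E14.5 was the single one not well above background, and the part of dividing cells or of other cell types in the repair gene ratios was not tested.

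The promoter letters were then set beside the size of the ratio. Counted by gene, 8 of 43 members with a window held the E2F letters (18.6%), against 4.07% of the genes measured at both ages. Of the 24 members at least 2-fold lower that had a window, 6 held them (25.0%), against 8.25% of all genes measured that were at least 2-fold lower, and so did 2 of 16 within 2-fold, Xrcc6 and Bard1. Of the 12 members at least 4-fold lower that had a window, 0 held them, against 13.0% of all genes measured that were at least 4-fold lower. Neil3, Chek1, Brca1 and Rad54l are among those 12, and the absence says only that these letters are not in this window.

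The other motifs were counted in the same way. CCAAT stood in 24 of the 43 members (55.8%), against 42.4% of the genes measured, and the CHR letters in 3 (6.98%), against 15.3%. Of the 24 members at least 2-fold lower, 14 held CCAAT (58.3%), against 49.4% of all genes measured that were as low. The CHR letters stood in 1 of these 24 (4.17%), against 19.5%. At 4-fold or more, 1 of 12 members held the CHR letters (8.33%), against 30.4%. By route, the E2F letters were in 3 of 11 recombination genes, 1 of 7 Fanconi genes, 2 of 3 mismatch genes, 1 of 4 end joining genes and 1 of 4 checkpoint kinases, and in none of the 8 base excision or 4 nucleotide excision genes with a window.

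**Figure D5:**
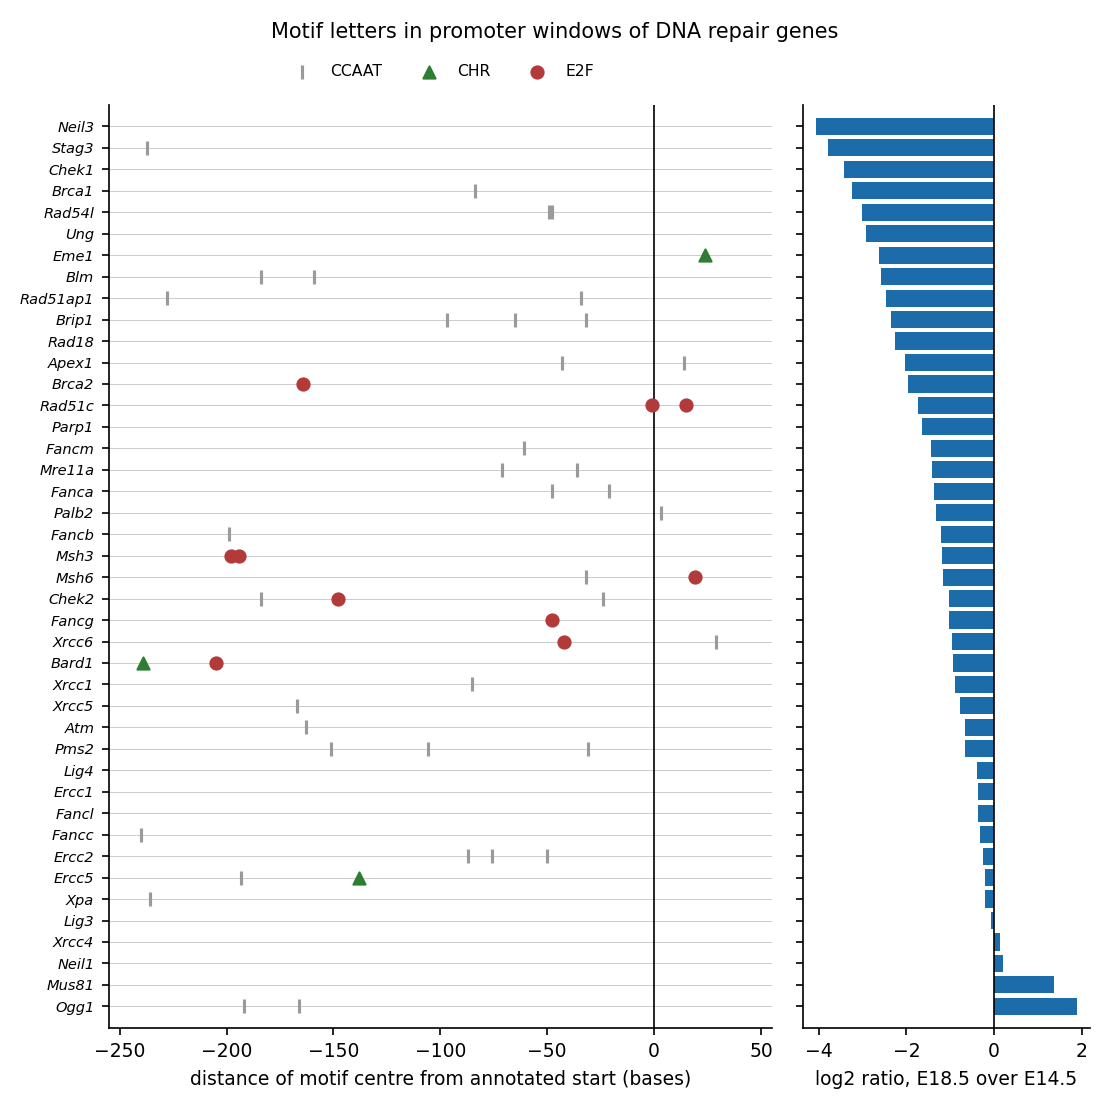
Left, distance of the centre of each motif match from the annotated start in bases (horizontal) for the members with a promoter window and a ratio, ordered from the smallest ratio at the top; all windows of a gene are drawn on its row. Right, log2 ratio of E18.5 over E14.5 of the same genes. E2F letters appear between Brca2 and Bard1 in this order and not in the 12 genes above them.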

How the data were processed

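Normalised intensity of gene transcripts was measured on 1 two-colour array of 45018 spots, with 1 lung at each age. The deposited scanner files hold mean and background intensity per spot, made with Agilent Feature Extraction 9.5.3.1 per the submitters' processing notes, and a log10 dye ratio (red divided by green), per the file headers. Both files hold the same 115 columns of values, so each age was read from its own dye. The authors' value table, an intensity per probe with a floor of 15, served as an alternative.

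Background was corrected with normexp (offset 50) and dyes were balanced by loess within the array (span 0.3, 4 iterations) in limma 3.58.1 (R 4.3.3), with 1639 control spots and 160 outlier spots at weight 0. Repeated spots were averaged. For each gene the brightest probe that cleared background at either age was used, which 17247 genes had. A probe measured in 1 channel gives a bound. The share of probes above background was 78.7% at E18.5 and 75.2% at E14.5, and 1 array limits all precision.

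The members, lists and motif letters were chosen with earlier results of these data known. Every member is named. Of the further genes the 5 highest and 5 lowest ratios were to be named, of which some are not reported here, and promoters are shown for 3 of the 4 members with the smallest ratios among those with E2F letters. Alternatives were the scanner's ratio, median centring, offset 0, the median over probes, probes above background in both channels, the value table, and folds of 1.5 and 3. The probe closest to 0 was added after seeing the data. Steps were tested on simulated data. Probe and protein sequences were not used here.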

Additional observations from a re-analysis of the deposited data

How the results depend on the processing

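No paired analysis was possible because each age has 1 sample. Of 364 recomputed ratios of single members, 315 moved by less than the spread between probes. Many of the 315 could not move at all. All 52 members were measured at both ages, so keeping only probes above background in both channels left them as they were. The median over probes and the probe closest to 0 could move only the 26 members with 2 or more such probes. Signs changed when the probe closest to 0 was taken, a setting added after seeing the data: Fancg to 0.45, Mre11a to 0.53 and Msh3 to 0.02, all past 2-fold before, and Neil1, within 2-fold, to -0.18. Members at least 2-fold lower numbered 33 with the scanner software's ratio and with the authors' value table, 29 with offset 0, 28 with probes above background in both channels, 26 with median centring, 25 with the median over probes and 22 with the probe closest to 0, beside 28. Of all genes, 14.8% passed 2-fold lower with the scanner's ratio, 15.4% with the value table and 11.3% with offset 0, beside 10.1%. This share was 10.6% with probes above background in both channels and 8.81% with median centring. With the median over probes it was 8.55%, and with the probe closest to 0 it was 7.21%. At 3-fold, 18 members were lower and 1 was higher. The share of all genes past 3-fold was not counted. For lower genes it must lie between 2.18% (4-fold) and 10.1% (2-fold), and for higher genes it is at most 17.3% (2-fold). The 2 members at least 2-fold higher kept that call in each of the 7 settings at 2-fold. Of these, the setting of probes above background in both channels could not change the call, and the 2 probes of each gene overlap. With the scanner's ratio the median of all genes was -0.05 beside 0.06, and the members' median lay -1.32 from it, beside -1.10. The members' median was -1.37 with the scanner's ratio and with the value table, that of the checkpoint kinases was -1.52 with both, and that of the recombination genes was -2.46 with the scanner's ratio and -2.35 with the value table. With the probe closest to 0, the medians were -1.26 for recombination, -0.69 for Fanconi and -0.36 for mismatch genes; with the median over probes, that of mismatch genes was -0.51. The further genes at least 2-fold higher numbered 1 with either of these probe rules. The cause was not tested, except that the offset, by construction, draws the ratios of dim probes towards 0. Signal over background limits Bard1, Neil2, Stag3, Palb2 and Rad51c, which were dim at E18.5.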

Other observations

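Some members share ground with a neighbouring gene in the RefSeq annotation, and the values of such pairs, chosen after they were seen, are given as a description. Fancd2, at -1.72, overlaps Fancd2os, at 1.25, so the 2 lay on opposite sides of 0. Ercc2, at -0.25, overlaps Klc3, a kinesin light chain, at 1.09. Ung, at -2.93, overlaps Alkbh2, a DNA alkylation repair enzyme, at -0.59.

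Proteins that work as partners did not always have like ratios. The Ku subunits Xrcc6 and Xrcc5 differed little (-0.95 and -0.78). Brca1 and Bard1 (-3.24 and -0.93), Eme1 and Mus81 (-2.63 and 1.36), Mre11a and Rad50 (-1.41 and -0.33) and Xrcc1 and Lig3 (-0.89 and -0.07) lay farther apart. Bard1 was dim, and with the scanner software's ratio Brca1 and Bard1 were at -3.51 and -2.47. These pairs were not tested, and each value comes from different probes.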
